A study of Mus musculus with 12 samples.

Results

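Liver endothelial cells were taken here as the droplet barcodes of whole mouse liver that carried RNA of several endothelial genes, and 1332 of 184493 barcodes that passed quality limits met the rule. They were chosen by their own counts: a barcode needed at least 1000 unique molecular identifiers (UMIs, each standing for 1 captured RNA molecule), at most 15% of them from mitochondrial genes, at least 1 UMI for 3 or more of Stab2, Kdr, Cdh5, Egfl7, Tie1 and Oit3, and fewer than 5 UMIs summed over the macrophage genes C1qa, C1qb and C1qc. The levels of these 9 genes are therefore a description and were not used as results.

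Livers of mice with 0, 1 or 2 copies of the Nodder (Ndr) allele of Jag1, a missense allele of this Notch ligand, were collected from E16.5 embryos and from pups on the 3rd day after birth (P3), dissociated, and profiled by droplet single-cell RNA sequencing. All animals came from matings of 2 Jag1Ndr/+ parents, homozygous pups at P3 were recognised by jaundice, TrypLE was used in the digestion at E16.5 only, and the genetic background was not given in the sources used here. The 12 deposited matrices held 9 separate libraries. At E16.5 these were Jag1+/+ replicate 1, 1 library deposited identically as Jag1+/+ replicate 2 and Jag1Ndr/+ replicate 2 (the shared library, counted once), Jag1Ndr/+ replicate 1, and Jag1Ndr/Ndr replicates 1 and 2. At P3 they were libraries A and B, whose barcodes recur in matrices labelled with another genotype (their genotype is unclear), library C, the Jag1Ndr/Ndr replicate 1 matrix without the 19927 barcodes it shared with library A, and library D, Jag1Ndr/+ replicate 1. Because the allele is missense, Jag1 UMIs do not check a genotype label.

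Sinusoidal endothelial cells line the blood spaces between hepatocyte plates. They are fenestrated, clear waste molecules and immune complexes through scavenger and Fc receptors, and those near the central vein send Wnt2 and Rspo3, signals that maintain the gene programme of pericentral hepatocytes. In the fetus the liver also makes blood, so its endothelium lies beside erythroid cells, megakaryocytes and neutrophil precursors. Notch ligands on large vessels, Jag1 among them, instruct neighbouring cells, and loss of Jag1 signalling impairs bile duct formation.

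The marker check went against reading every gated barcode as an endothelial cell. Clustering within each stage put 414 of 884 gated barcodes at E16.5 (46.8%) and 211 of 448 at P3 (47.1%) in clusters led by endothelial genes or by genes of no listed cell type. These endothelial clusters held 34.9% of the gated UMIs at E16.5 and 15.5% at P3. The other clusters were led by erythroid, hepatocyte, neutrophil, B cell, mesenchymal or megakaryocyte genes. Megakaryocyte-led clusters were small in number (51 and 49 barcodes) but had median depths of 65072 and 61869 UMIs, so they held 25.8% of the gated UMIs at E16.5 and 53.2% at P3. The platelet genes Pf4 and Ppbp accordingly led the ranking of genes in gated against other barcodes, ahead of Lyve1, the hyaluronan receptor of sinusoids. Cluster names were rebuilt here from marker lists, and list counts below are given for all gated barcodes and for the endothelial clusters. Values of single genes are those of the endothelial clusters unless said otherwise. The clusters were made from the same counts, and restricting to them was decided after the data were seen. Clusters were kept partly by endothelial markers among their leading genes. Some of these markers, such as Clec4g, Rspo3 and Gja5, are members of lists tested below, so their calls are not independent of that choice.

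**Figure D1:**
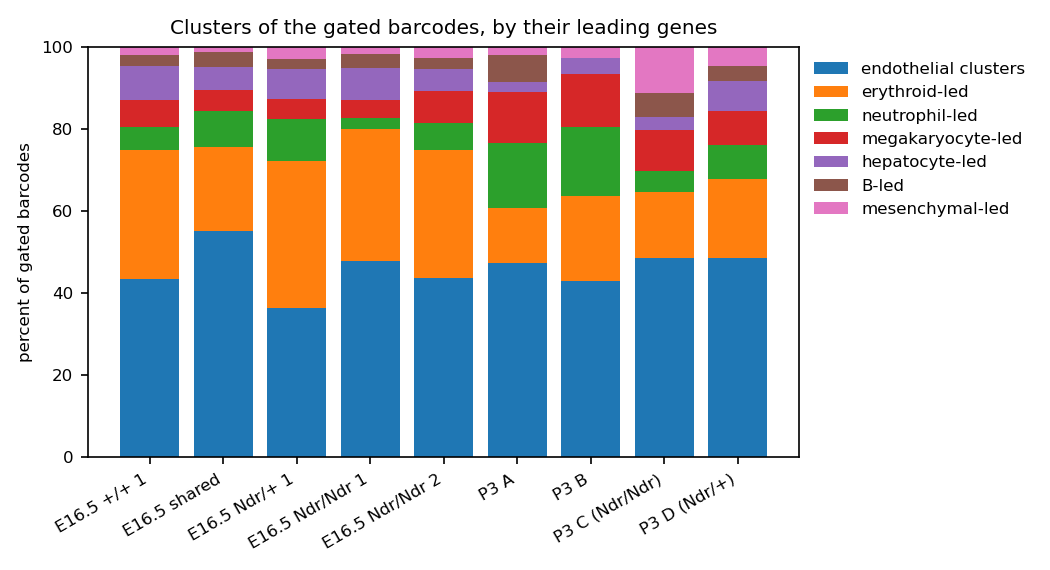
Percent of gated barcodes (vertical axis) in each of the 9 libraries, stacked by the class of the genes that led each barcode's cluster. Endothelial clusters make up between 36.4% (E16.5 Jag1Ndr/+ replicate 1) and 55.2% (E16.5 shared library) of the gated barcodes.

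Barcodes with fewer of the 6 genes had less Lyve1, and megakaryocyte RNA reached into the barcodes with all 6. At E16.5 the 191 barcodes with exactly 3 of the 6 genes had a Lyve1 level of 38.7 CPM (UMI counts scaled to a common total) and 17005 Pf4 CPM, whereas the 402 with all 6 genes had 1266 and 611. The 827 barcodes just outside, with exactly 2 genes, had 12.6 Lyve1 CPM. At P3 the corresponding Lyve1 levels were 49.8 CPM with exactly 3 genes (108 barcodes), 1991 CPM with 6 genes (115 barcodes) and 11.3 CPM just outside (478 barcodes). Pf4 at P3 was at 32457 CPM with exactly 3 genes, 17578 with 4, 33.5 with 5 and 7003 with 6, so with all 6 genes it was above Lyve1.

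Gated barcodes numbered 108, 308, 165, 115 and 188 in the E16.5 libraries, in the order given above, and 163, 77, 99 and 109 in P3 libraries A to D. Their median depth was 9741 to 13003 UMIs at E16.5 and 3822 to 6408 at P3. Of the E16.5 libraries, the 3rd (Jag1Ndr/+) and the 5th (Jag1Ndr/Ndr) had more UMIs of Xist than of Ddx3y, which is Y-linked, and the other 3 had fewer. Libraries share no barcodes beyond 1.72% of the smaller one once the recurring sets are counted once. Unless said otherwise, values per library follow this order.

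As a share of passing barcodes, gated barcodes made up 0.570%, 1.49%, 0.568%, 0.626% and 0.711% at E16.5 and 0.758%, 0.439%, 0.659% and 0.640% at P3. The endothelial clusters alone made up 0.248%, 0.824%, 0.207%, 0.300% and 0.310%, and 0.358%, 0.188%, 0.319% and 0.311%. The shared library stood above all others by both measures, and the groups overlapped in both comparisons. Homozygous libraries averaged 0.669% ± 0.0599 (SD, n = 2) against 0.878% ± 0.534 (SD, n = 3) in the other E16.5 libraries, a log2 difference of -0.23 (two-sided exact permutation test, p = 1; 10 arrangements allow no p below 0.1). Without the shared library the difference was 0.23, in the opposite direction and with no overlap (exact permutation p = 0.333, the smallest that 2 against 2 libraries allow). With all 5 libraries, among barcodes with under 5% globin UMIs, it was -0.80 (3.20% against 5.73%, exact permutation p = 0.4). This limit kept only 243 to 978 barcodes per E16.5 library, 17 to 55 of them gated. P3 libraries averaged 0.624% ± 0.134 (SD, n = 4) against 0.794% ± 0.395 (SD, n = 5) at E16.5 (log2 difference -0.27, two-sided exact permutation p = 0.556, 126 arrangements, smallest possible p 0.00794). A share of captured barcodes depends on dissociation and on how many other cells were captured. Among barcodes with under 5% globin UMIs, the P3 share was lower, 1.06% ± 0.300 against 4.72% ± 2.86 (log2 difference -1.99, exact permutation p = 0.0159). At P3 this limit kept 6574 to 11493 barcodes per library, 61 to 128 of them gated, far more than at E16.5. The P3 share was also lower when gated barcodes with any C1q UMI were left out (-0.86, exact permutation p = 0.0397). This took out 38, 111, 46, 43 and 65 gated barcodes at E16.5 and 91, 50, 62 and 42 at P3. Both limits removed unequal parts of the stages, so these differences cannot be read as endothelial abundance alone.

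**Figure D2:**
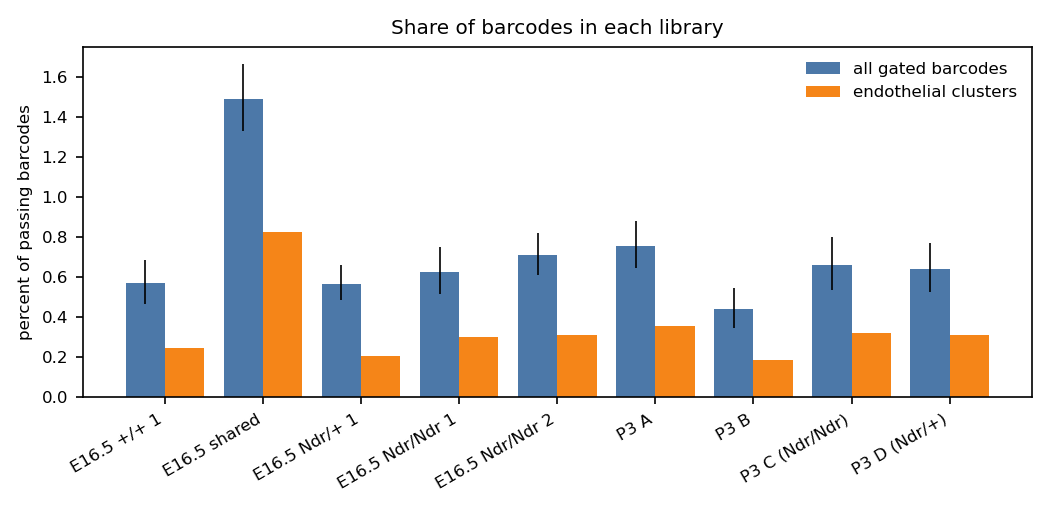
Percent of passing barcodes (vertical axis, from 0) that met the rule (blue, with exact binomial 95% intervals, which cover counting error only) and that fell in the endothelial clusters (orange), by library. The E16.5 shared library is highest at 1.49% and 0.824%.

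The endothelial clusters had 4 kinds at E16.5 and 2 at P3. Their leading genes are a description of the clustering and carry no test. Cluster 2 at E16.5 (275 barcodes) was sinusoidal-like, with the nuclease gene Dnase1l3, the orphan receptor Gpr182 and the Fc receptor Fcgr2b among its leading genes. Cluster 1 at P3 (180 barcodes) was also sinusoidal-like, with Clec4g, Dnase1l3, Gpr182 and Stab1 among its leading genes; Stab2, which was there too, is a gate gene and was not needed for the name. Cluster 6 at E16.5 (35 barcodes) was large-vessel-like, with the arterial connexin genes Gja4 and Gja5, Ly6a and the elastin gene Eln. A cluster led by Rspo3 and Fbln2 was seen at each stage (18 barcodes at E16.5 and 31 at P3); with fewer than 3 markers among its leading genes it was left unnamed. Cluster 10 at E16.5 (86 barcodes), led by the mitotic genes Pimreg and Sgo2a and the cell-cycle inhibitor gene Cdkn2c, was unnamed as well. Its Lyve1 level was 1729 CPM, against 1598 CPM in the sinusoidal-like cluster.

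Jag1, itself among the 10 leading genes of the large-vessel-like cluster, is described here with no test. There 97 Jag1 UMIs were counted in 22 of 35 barcodes, 303 CPM with an exact Poisson 95% interval of 245 to 369. The sinusoidal-like cluster had 7.40 CPM (4.64 to 11.2), and cluster 10 had 6.04 CPM (2.61 to 11.9). Among the non-endothelial clusters Jag1 was highest in the mesenchymal-led one, at 87.7 CPM (64.0 to 117). In the megakaryocyte-led cluster 3 of 51 barcodes had a Jag1 UMI at a median depth of 65072 UMIs, against 7840 UMIs in the large-vessel-like cluster, and 10 of 252 erythroid-led barcodes had one at 5682.5 UMIs. At P3 the Rspo3-led cluster had 78.4 Jag1 CPM (41.7 to 134) from 13 UMIs, and the sinusoidal-like cluster had 11.2 CPM (4.83 to 22.02). These intervals cover counting error only and pool libraries.

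Other Notch ligands were seen in the same clusters. Dll1 was at 43.7 CPM in the large-vessel-like cluster and 16.8 CPM in the sinusoidal-like cluster of E16.5. Dll4 stood at 153 CPM (113 to 202) in the large-vessel-like cluster and 70.3 CPM (61.1 to 80.5) in the sinusoidal-like cluster at E16.5. At P3 the sinusoidal-like cluster had 55.9 Dll4 CPM (39.9 to 76.1), and no Dll4 UMI was counted in the 31 barcodes of the Rspo3-led cluster (upper limit 22.2 CPM). The receptor gene Notch1 was present in all 4 E16.5 endothelial clusters, at 182 CPM in cluster 1, 190.5 CPM in cluster 2, 259 CPM in cluster 6 and 203 CPM in cluster 10. In these pooled counts the levels of Jag1 and Dll4 differed more between clusters than that of Notch1.

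Between the stages, a large share of the genes differed. The question was how endothelial expression at P3 compares with E16.5, with genotypes mixed at each stage. Counts were summed per library and tested with edgeR's quasi-likelihood test, and a gene is called when its Benjamini-Hochberg adjusted p is under 0.05. Of 10224 genes tested in all gated barcodes, 1691 were called higher at P3 (16.54%) and 1601 lower (15.7%). In the endothelial clusters 1028 of 7282 were called higher (14.1%) and 1186 lower (16.3%). Of these, 553 were called higher and 691 lower in both fits, and 19 were called in opposite directions. Groups without overlap are pointed out below for single genes. The share of all tested genes that separated in this way is not given here, so the separation is a description only. The stage goes with TrypLE use, the gene list and the software version, and these cannot be told apart. Ddx3y was at 28.9 to 35.4 CPM of passing barcodes in the P3 libraries, whose gene list lacks Xist. At E16.5, Jag1Ndr/+ replicate 1 and Jag1Ndr/Ndr replicate 2 had 2 and 8 Ddx3y UMIs. Libraries nearly without this RNA were thus seen at E16.5 only, so sex as read from Ddx3y was unbalanced between stages too.

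Markers of other cell types also differed between stages in the gated barcodes. The largest increases there, among genes enriched in the gated barcodes of P3, included genes that hepatocytes express. Cyp4a14, a fatty acid hydroxylase, was at 0 in all 5 E16.5 libraries and at 20.8, 38.1, 14.8 and 58.4 normalised CPM in the 4 P3 libraries. The apolipoprotein gene Apoa5 stood at 0, 0, 0.436, 0 and 0 and then at 14.6, 38.1, 29.5 and 61.9. The hepatocyte marker list did not follow these genes: in the same barcodes 0 of 12 markers were called higher and 3 lower (Alb, Afp and Trf; median log2 fold change -0.23), and the list summed to 13739 to 20580 CPM at E16.5 and 3007 to 21354 at P3. Of the 9 megakaryocyte markers tested, 7 were called higher and 0 lower at P3, and of 10 erythroid markers 0 were called higher and 9 lower. In the endothelial clusters the megakaryocyte markers summed to 67.5 to 126 CPM at E16.5 and 111 to 142 at P3, with Gp1bb at 0 at E16.5. Erythroid markers still summed to 108160 to 196400 CPM there at E16.5 and 8240 to 89028 at P3 (0 of 10 called higher, 9 lower), and neutrophil markers to 398 to 1183 and 1191 to 7173 (6 of 8 higher, 0 lower). The hepatocyte markers Alb, Afp and the others of that list summed to 1404 to 2605 and 1112 to 3361 CPM (4 of 12 higher, 2 lower). Of the 8 macrophage markers outside the rule, 2 were tested there: Marco was called higher (1.77), with overlapping groups, and Cd5l was not called (-0.65). All macrophage markers, with the C1q genes that the rule limits, summed to 174 CPM in the sinusoidal-like cluster of E16.5 and 421 in that of P3. Mesenchymal markers summed to 45.2 to 117 and 196 to 254 CPM in the endothelial clusters, with no overlap (2 of 2 tested higher, Ecm1 and Dcn). The part of these RNAs in the results below was not tested. The endothelial-cluster values come first for each group of genes, as log2 fold changes of normalised CPM, and the median over all genes tested was 0.01 in both fits. The list counts stand beside the shares of all genes called higher and lower at P3. These were 14.1% and 16.3% in the endothelial clusters and 16.54% and 15.7% in all gated barcodes.

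**Figure D3:**
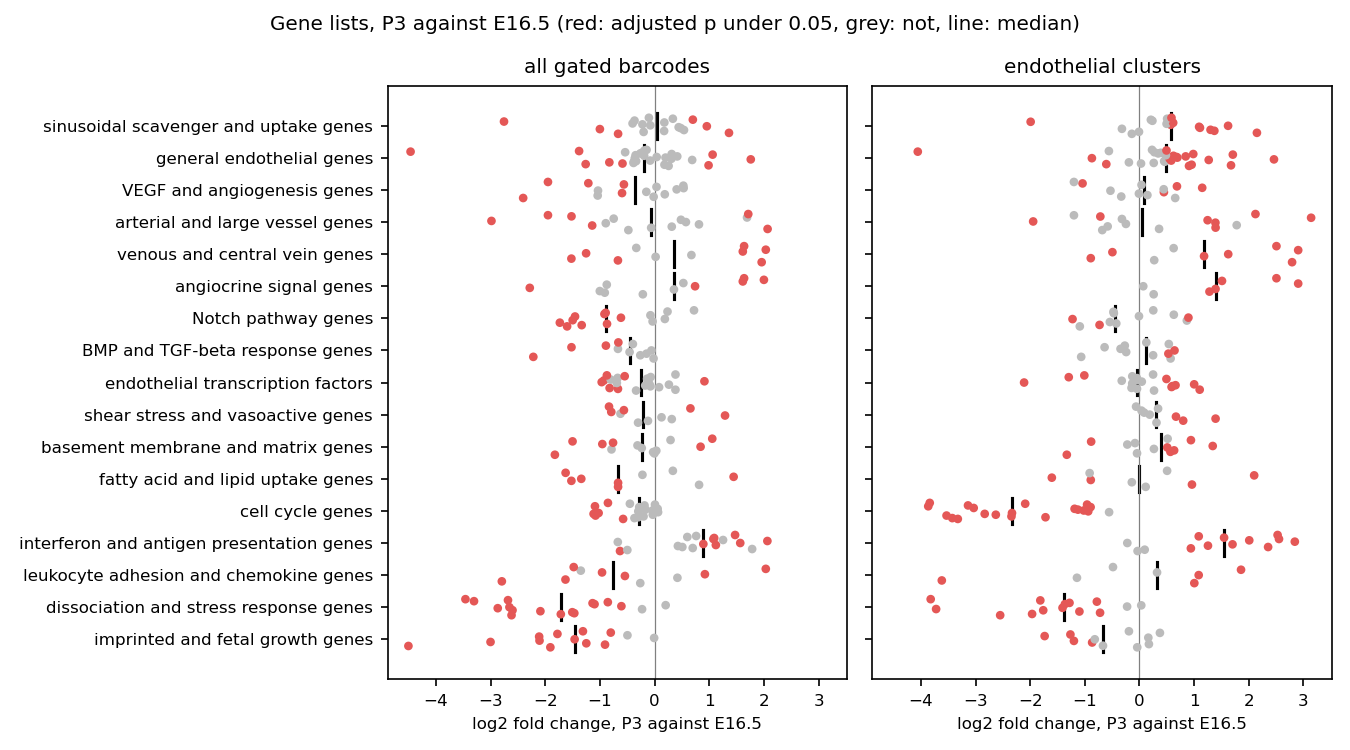
Log2 fold change at P3 against E16.5 (horizontal axis) of each tested member of 17 gene lists (rows), in all gated barcodes (left) and in the endothelial clusters (right). Red points were called (adjusted p under 0.05), grey points were not, and the black line is the list's median; the cell cycle list has a median of -0.29 on the left and -2.34 on the right.

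Several genes of scavenging and uptake were called higher at P3 in the endothelial clusters. In the list of sinusoidal scavenger and uptake genes 9 of 17 tested members were called higher at P3 and 1 lower (median log2 fold change 0.57). Macrophages also express several of these genes, and the part of macrophage RNA was not tested. Clec4g, Dnase1l3, Gpr182, Stab1 and Fcgr2b were among the leading genes by which the sinusoidal-like clusters were named and kept. The part of this choice in their calls was not tested. The median depth of the endothelial-cluster barcodes was 10610 UMIs at E16.5 and 3492 at P3, under a rule that needs UMIs of 3 genes at any depth. The 6 endothelial genes of the rule, given as a description, had a median log2 difference of 0.40, and the part of the rule in the increases of this and the next list was not tested. Clec4g, a C-type lectin of liver sinusoids, stood at 291, 189, 227, 199 and 172 normalised CPM in the E16.5 libraries and at 827, 1029.9, 939 and 1022 in the P3 libraries (log2 fold change 2.15, SE 0.17, edgeR adjusted p = 1.05e-08). All 4 P3 libraries lay above all 5 E16.5 libraries, and Clec4g was also called in all gated barcodes (1.36, adjusted p = 8.63e-04). Fcgrt, the neonatal Fc receptor that recycles immunoglobulin G and albumin, went from 299.7, 250.3, 370.1, 351 and 322 to 996, 845, 1161 and 893 CPM (log2 fold change 1.62, SE 0.17, edgeR adjusted p = 2.90e-07), again with no overlap, and rose in all gated barcodes as well (0.96, adjusted p = 0.00597).

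The Fc gamma receptor gene Fcgr2b (1.09), the nuclease gene Dnase1l3 (1.11) and the lysosomal protease gene Ctsl (1.30) rose in the endothelial clusters without overlap between stages. Smaller increases were called for Lyve1 (0.62), Stab1, a scavenger receptor (0.59), and Gpr182 (0.57). None of these 6 was called in all gated barcodes, where the list stood at 3 higher and 3 lower of 18 (median 0.05) and the values of Stab1 and Gpr182 were -0.10 and -0.08. The Stab1 call was lost without P3 library D (0.47, edgeR adjusted p = 0.0612), and the Gpr182 call without libraries A and B (0.49, 0.0704). Mcam, an endothelial adhesion molecule, was the member that fell: it stood at 257, 195, 195, 261 and 245 CPM at E16.5 and 69.6, 78.1, 45.3 and 35.0 at P3 (log2 fold change -1.99, SE 0.23, edgeR adjusted p = 1.05e-06), and it was also lower in all gated barcodes (-2.76). In the sinusoidal-like clusters alone (275 and 180 barcodes), Clec4g (1.97), Fcgrt (1.55), Lyve1 (0.70) and Mcam (-2.13) were called in the same directions. For Clec4g, which helped to name the P3 cluster, this is no separate support. These clusters were made separately in each stage and do not hold matched cells: markers of large vessel endothelium summed to 661 CPM in the E16.5 cluster and 1083 CPM in the P3 cluster, and cluster 10 was kept apart at E16.5.

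In the list of general endothelial genes 14 of 28 tested members were called higher at P3 and 3 lower (median log2 fold change 0.49). Erg, an ETS transcription factor that maintains endothelial identity, was at 17.2, 10.1, 12.4, 21.8 and 14.998 CPM at E16.5 and 83.0, 71.0, 78.2 and 87.6 at P3 (log2 fold change 2.46, SE 0.27, edgeR adjusted p = 7.90e-07), and the groups did not overlap. Increases of the phosphatase gene Ptprb (1.71), the water channel gene Aqp1 (1.68) and the TGF-beta coreceptor gene Eng (1.27) were called too, and those of Erg, Ptprb and Aqp1 also in all gated barcodes, where the list stood at 3 higher and 5 lower of 28 (median -0.19).

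Sox18 had the largest decrease of the list. This SOX factor acts in developing blood and lymphatic vessels. Its level was 246, 215, 218, 268 and 232 CPM in the E16.5 libraries and 18.7, 7.10, 4.12 and 23.4 in the P3 libraries, so that every P3 library lay far below every E16.5 library (log2 fold change -4.06, SE 0.29, edgeR adjusted p = 2.11e-09). The decrease was of like size in all gated barcodes (-4.47) and in the sinusoidal-like clusters (-3.82). Another ETS factor gene, Fli1, fell less (-0.87) and was not called in all gated barcodes (-0.36).

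Of the 17 angiocrine genes, signals that endothelium sends to other liver cells, 7 were tested in the endothelial clusters: 5 of 7 tested members were called higher at P3 and 0 lower (median log2 fold change 1.39), and of the venous and central vein list, which shares Wnt2 and Rspo3 with it, 5 of 9 tested members were called higher at P3 and 2 lower (median log2 fold change 1.18). Wnt2 (chr6:17988940-18030585 on GRCm38) stood at 51.7, 46.5, 44.3, 16.7 and 19.6 CPM at E16.5 and 217, 163, 280.1 and 146 at P3 (log2 fold change 2.51, SE 0.27, edgeR adjusted p = 6.15e-07). Every P3 library was above every E16.5 library, and Wnt2 also rose in all gated barcodes, though with overlap (1.64, adjusted p = 0.00656), and in the sinusoidal-like clusters (2.89). Rspo3 (chr10:29452416-29535867), which amplifies Wnt signalling, was at 70.6, 54.8, 42.5, 5.02 and 19.6 CPM and then at 709.6, 63.9, 202 and 81.7 (log2 fold change 2.90, SE 0.51, edgeR adjusted p = 1.64e-04). Rspo3 at both stages and Wnt2 at E16.5 were among the leading genes of kept clusters, and the part of this choice was not tested.

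The Rspo3 groups overlapped, and library A, with 20 of the 31 barcodes of the Rspo3-led P3 cluster, was the highest. Without library A the Rspo3 change was 1.63 (edgeR adjusted p = 0.0117) in the endothelial clusters, and in all gated barcodes the change of 1.61 lost its call (1.01, 0.183). Igfbp7, a secreted IGF-binding protein gene (1.39), and Tgfb1 (1.51) also rose. Of the venous genes, the cadherin gene Cdh13 went from 17.2, 8.34, 10.6, 8.37 and 0 to 85.7, 56.8, 41.2 and 35.0 CPM (log2 fold change 2.79, SE 0.45, edgeR adjusted p = 7.49e-05), the receptor kinase gene Kit rose (1.18; not called without libraries A and B, 0.91, adjusted p = 0.0639), and Nr2f2, the venous fate regulator gene, was slightly lower (log2 fold change -0.50, SE 0.17, edgeR adjusted p = 0.0271). The Nr2f2 call did not survive leaving out either homozygous E16.5 library, C or D in turn (adjusted p 0.0521 to 0.0799), and Nr2f2 was called lower in all gated barcodes (-1.25). The lists stood, in all gated barcodes, at 4 higher and 1 lower of 11 (median 0.35) and 4 higher and 3 lower of 10 (median 0.35).

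Arterial, VEGF and transcription factor genes moved in both directions. Among all genes tested in the endothelial clusters, 14.1% were called higher and 16.3% lower. Among arterial and large vessel genes 5 of 14 tested members were called higher at P3 and 2 lower (median log2 fold change 0.06), and among VEGF and angiogenesis genes 3 of 12 tested members were called higher at P3 and 1 lower (median log2 fold change 0.09). Vwf, the von Willebrand factor gene, was at 94.7, 41.7, 15.9, 56.9 and 57.7 and then 353, 369, 82.4 and 105 CPM (log2 fold change 2.12, SE 0.38, edgeR adjusted p = 2.20e-04); the groups overlapped and the difference without libraries A and B was 0.79 (edgeR adjusted p = 0.213). Nrp1, a VEGF and semaphorin coreceptor gene, rose from 295, 275, 225, 278 and 285 to 541, 646, 548 and 689 CPM (log2 fold change 1.15, SE 0.15, edgeR adjusted p = 9.32e-06) with no overlap. Of the endothelial transcription factors 6 of 19 tested members were called higher at P3 and 3 lower (median log2 fold change -0.05): the hypoxia-inducible factor gene Epas1 rose (1.10), while Lmo2 (-2.11) and Tal1 (-1.29), partners in a complex that also drives blood cell formation, fell. Erythroid cells also express Lmo2 and Tal1, and erythroid markers fell in the same libraries by the amounts given above; their part in the result was not tested. These lists stood, in all gated barcodes, at 2 higher and 4 lower of 15 (median -0.06), 0 higher and 5 lower of 14 (median -0.36) and 1 higher and 6 lower of 20 (median -0.26).

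Notch pathway genes gave different counts in the 2 fits. In the endothelial clusters 1 of 12 tested members were called higher at P3 and 2 lower (median log2 fold change -0.45). Over all genes of that fit 14.1% were called higher and 16.3% lower, so the counts of this list lay near the background. In all gated barcodes the list stood at 0 higher and 9 lower of 14 (median -0.88), where 15.7% of all genes were called lower. Dll4 stood at 53.4, 67.4, 67.3, 78.7 and 93.5 CPM at E16.5 and at 37.5, 56.8, 41.2 and 46.7 at P3 in the endothelial clusters (log2 fold change -0.73, SE 0.25, edgeR adjusted p = 0.0315), with overlap of the lowest E16.5 and highest P3 library. This call was lost without Jag1Ndr/Ndr replicate 2 at E16.5, A or C (adjusted p 0.0680 to 0.129), under DESeq2 (0.0746) and in the sinusoidal-like clusters alone (-0.58, 0.0989). Over all gated barcodes Dll4 did not overlap between stages (log2 fold change -1.33, SE 0.20, edgeR adjusted p = 5.98e-04). There the megakaryocyte-led clusters held 25.8% of the UMIs at E16.5 and 53.2% at P3. They had 0.279 and 0.661 CPM of Dll4, and 3.35 and 2.64 CPM of Notch1, also called lower over all gated barcodes. The part of their larger share in the Dll4 change and in the list's counts was not tested. The coactivator gene Maml1 fell (-1.23 in the endothelial clusters and -1.50 in all gated barcodes), the former call being lost without the shared library, A, C or D (adjusted p 0.0510 to 0.105).

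The glycosyltransferase gene Mfng, which tunes Notch receptors to their ligands, rose in the endothelial clusters (log2 fold change 0.90, SE 0.27, edgeR adjusted p = 0.0142), a call lost without library C (0.63, adjusted p = 0.131). Jag1 itself was at 51.7, 19.1, 14.2, 65.3 and 23.1 CPM at E16.5 and 37.5, 42.6, 4.12 and 0 at P3 in the endothelial clusters, with overlapping groups (log2 fold change -0.54, SE 0.59, edgeR adjusted p = 0.528). Library C had 1 Jag1 UMI and library D had 0, which allow up to 25.2 and 24.1 CPM, above the levels of 3 of the E16.5 libraries. The difference without A and B (-3.67, edgeR adjusted p = 0.0398) rests on this 1 UMI and gives no usable size. In all gated barcodes Jag1 was called lower (log2 fold change -1.73, SE 0.52, edgeR adjusted p = 0.0233), not so without A (-1.88, 0.0522) or without C (-1.44, 0.0576). Notch1 was at 202, 228, 159, 249 and 257 and 217, 220.2, 202 and 239 CPM (log2 fold change -0.01, SE 0.17, edgeR adjusted p = 0.979), and the Notch target gene Hes1 at 77.5, 52.5, 35.4, 55.2 and 75.0 and 34.8, 92.3, 32.9 and 35.0 (log2 fold change -0.42, SE 0.32, edgeR adjusted p = 0.337).

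Nearly every cell cycle gene tested was lower at P3 in the endothelial clusters. In this list 0 of 20 tested members were called higher at P3 and 19 lower (median log2 fold change -2.34). Mki67, expressed in all cycling cells, was at 491, 620.5, 528, 485 and 624 CPM at E16.5 and 21.4, 78.1, 107 and 81.7 at P3 (log2 fold change -3.03, SE 0.28, edgeR adjusted p = 6.24e-08), and the ribonucleotide reductase gene Rrm2 at 133, 162, 135, 110.4 and 175 and 8.03, 7.10, 12.4 and 11.7 (log2 fold change -3.87, SE 0.32, edgeR adjusted p = 1.43e-08). Neither gene overlapped between stages. The mitotic kinase gene Cdk1 (-3.53) and the ubiquitin ligase cofactor gene Ube2c (-3.84) fell likewise. No endothelial cluster at P3 was led by mitotic genes; in the sinusoidal-like clusters alone, which leave out cluster 10 of E16.5, Mki67 (-3.03) and Rrm2 (-3.38) were called lower by similar amounts. The list stood, over all gated barcodes, at 0 higher and 6 lower of 20 (median -0.29), and Mki67 was not called (-0.22, adjusted p = 0.489). There P3 library D was the highest and C the lowest of all 9 libraries for Mki67 (347, 347, 262 and 660.3 CPM in A to D), and Mki67 was called lower without D (-0.55, edgeR adjusted p = 0.0147). The megakaryocyte-led and erythroid-led clusters of P3 had 379 and 921 Mki67 CPM, against 54.5 CPM in the sinusoidal-like cluster. At E16.5 the corresponding levels were 363, 550 and 391 CPM, with 337 CPM (cluster 6) to 810 CPM (cluster 10) over all 11 clusters. Erythroid marker RNA in the endothelial clusters fell between the stages together with the cell cycle genes (108160 to 196400 CPM and then 8240 to 89028); its part in the decrease was not tested.

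**Figure D4:**
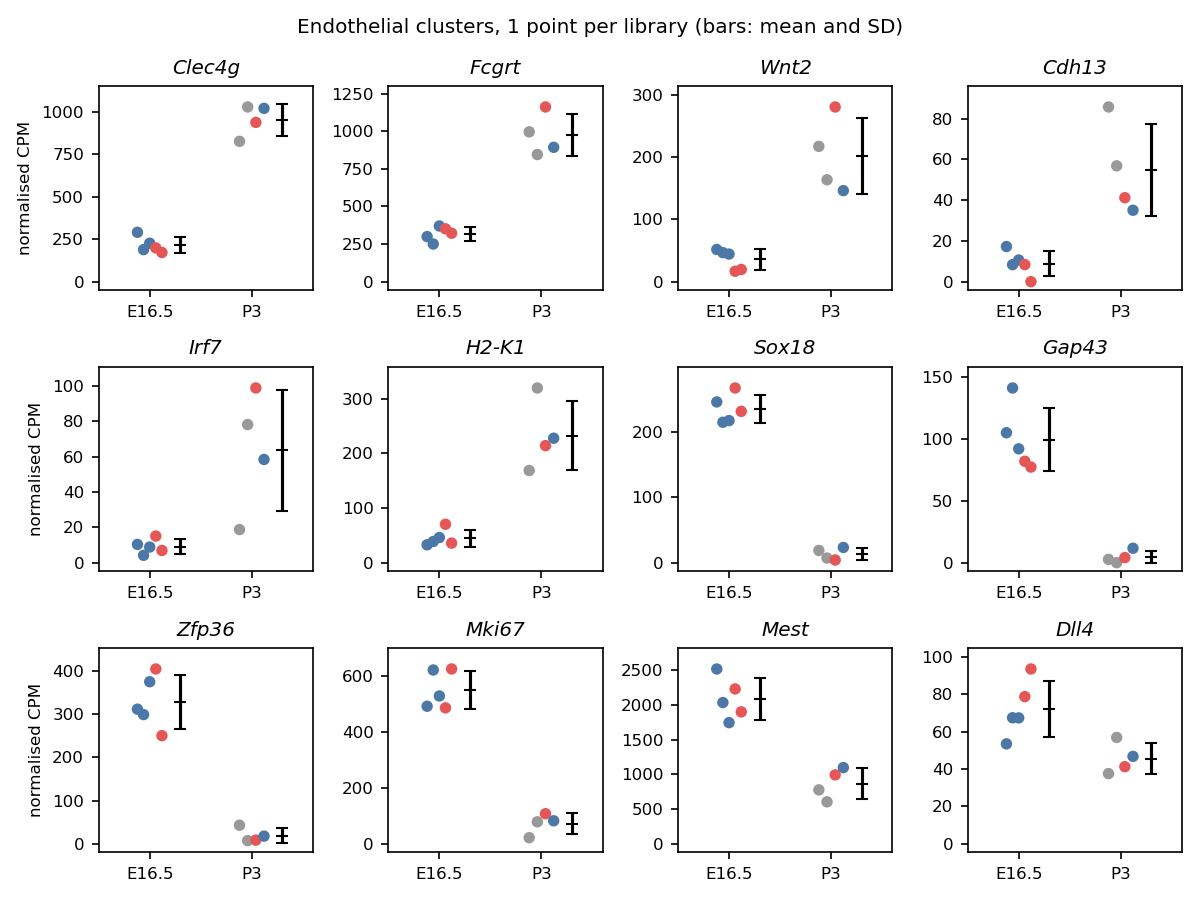
Normalised CPM (vertical axes) of 12 genes in the endothelial clusters, 1 point per library, at E16.5 and P3; red points are Jag1Ndr/Ndr libraries, grey points are P3 libraries A and B of unclear genotype, blue points are the others, and bars are the mean and SD (n = 5 and 4). The genes were picked with their values known, some by a rule that required stages without overlap, so their separation is no result. The Dll4 points overlap.

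Interferon-induced and antigen presentation genes were higher at P3. In that list 10 of 13 tested members were called higher at P3 and 0 lower (median log2 fold change 1.55). Irf7, a transcription factor of the interferon response, was at 10.3, 4.17, 8.85, 15.1 and 6.92 CPM at E16.5 and 18.7, 78.1, 98.8 and 58.4 at P3 (log2 fold change 2.84, SE 0.45, edgeR adjusted p = 5.88e-05). H2-K1, a class I histocompatibility gene, stood at 32.7, 38.7, 46.0, 70.3 and 35.8 and then 169, 319.6, 214 and 228 (log2 fold change 2.35, SE 0.23, edgeR adjusted p = 1.33e-07). For both genes Jag1Ndr/Ndr replicate 1 was the highest of the E16.5 libraries and still below every P3 library. Ly6e (2.55), the peptide transporter gene Tap1 (2.53) and Ifitm2, which restricts virus entry (1.25), rose as well. Isg15, a ubiquitin-like modifier gene, was at 10.3, 4.77, 21.2, 63.6 and 18.5 CPM at E16.5 and 77.7, 121, 90.6 and 52.5 at P3 (log2 fold change 2.01, SE 0.48, edgeR adjusted p = 0.00325), where Jag1Ndr/Ndr replicate 1 lay above library D, and its call was lost without libraries A and B (1.80, adjusted p = 0.0544). Over all gated barcodes the list stood at 7 higher and 1 lower of 17 (median 0.89).

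Promoter sequences of 2 of these genes are shown because they hold the interferon-stimulated response element, the letters that interferon-activated factors recognise. The search was for GAAA, any 2 bases and GAAA, on both strands of the 250 bases before the annotated start, in RefSeq promoters of GRCm38.p6. Of 32851 such promoters 978 (2.98%) held it, and so did 4 of the 14 list members with an entry: 2 of the 8 called ones, Ifitm2 and Isg15, and 2 of the 6 others, B2m and Bst2. The sequences run 5′ to 3′ on the gene's strand, with the matched letters in capitals (1 match in Ifitm2, chr7:140955962-140956211, minus strand; 3 overlapping matches in Isg15, chr4:156200819-156201068, minus strand). A match describes the letters and not a bound site.
Ifitm2: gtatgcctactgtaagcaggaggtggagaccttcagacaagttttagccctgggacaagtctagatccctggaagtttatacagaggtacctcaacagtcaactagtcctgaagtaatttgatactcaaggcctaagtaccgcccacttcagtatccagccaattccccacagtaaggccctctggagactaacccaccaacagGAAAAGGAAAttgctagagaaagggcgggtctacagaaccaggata
Isg15: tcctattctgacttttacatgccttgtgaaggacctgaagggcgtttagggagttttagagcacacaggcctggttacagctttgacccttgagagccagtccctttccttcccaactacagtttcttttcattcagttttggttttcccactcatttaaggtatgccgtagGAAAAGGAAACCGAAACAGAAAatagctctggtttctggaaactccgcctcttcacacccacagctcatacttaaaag

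Immediate-early and stress genes were lower at P3. They are switched on within minutes by many stimuli, tissue dissociation among them. In that list 0 of 14 tested members were called higher at P3 and 12 lower (median log2 fold change -1.39), and in all gated barcodes it stood at 0 higher and 15 lower of 17 (median -1.72). Zfp36, which destabilises inflammatory messenger RNAs, was at 312, 299, 375, 405 and 250.3 CPM at E16.5 and 42.8, 7.10, 8.24 and 17.5 at P3 (log2 fold change -3.82, SE 0.32, edgeR adjusted p = 1.43e-08), with no overlap. Fos was at 357, 504, 551, 674 and 577 and 129, 170.5, 140.0 and 204 CPM (log2 fold change -1.76, SE 0.21, edgeR adjusted p = 1.93e-06), and Fosb at 298, 267, 319, 659 and 217 and 21.4, 14.2, 8.24 and 70.1 (log2 fold change -3.72, SE 0.43, edgeR adjusted p = 1.38e-06). Jag1Ndr/Ndr replicate 1 was the highest E16.5 library for all 3 genes. The antiproliferative gene Btg2 (-1.97), the cytokine signalling inhibitor gene Socs3 (-1.81) and the phosphatase gene Dusp1 (-0.72) fell too. Since TrypLE was used at E16.5 only, stage and digestion cannot be told apart for these genes.

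Of these, Btg2 and Dusp1 have a cyclic AMP response element, TGACGTCA, the letters bound by CREB and ATF factors, in the 250 bases before their start. It was found on either strand in 508 of 32851 promoters (1.55%) and in 2 of the 14 stress genes with an entry, both among the 10 called. Both promoters are given 5′ to 3′ on the gene's strand with the match in capitals (Btg2, chr1:134079156-134079405, minus strand; Dusp1, chr17:26508473-26508722, minus strand; RefSeq, GRCm38.p6).
Btg2: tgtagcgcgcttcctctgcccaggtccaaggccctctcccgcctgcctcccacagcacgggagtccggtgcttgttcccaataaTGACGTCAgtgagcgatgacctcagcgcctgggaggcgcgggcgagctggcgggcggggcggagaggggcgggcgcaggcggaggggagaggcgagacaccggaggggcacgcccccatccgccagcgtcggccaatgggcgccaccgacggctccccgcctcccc
Dusp1: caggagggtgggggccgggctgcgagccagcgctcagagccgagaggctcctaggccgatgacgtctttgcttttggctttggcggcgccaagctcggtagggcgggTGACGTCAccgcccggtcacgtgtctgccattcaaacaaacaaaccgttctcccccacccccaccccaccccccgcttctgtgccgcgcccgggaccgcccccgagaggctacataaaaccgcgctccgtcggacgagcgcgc

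Fetal growth genes were lower or not called. In the imprinted and fetal growth list 0 of 11 tested members were called higher at P3 and 4 lower (median log2 fold change -0.67), and in all gated barcodes it stood at 0 higher and 11 lower of 13 (median -1.46). Mest, an imprinted gene among the leading endothelial genes here, was at 2520.2, 2036, 1746, 2232 and 1901 CPM at E16.5 and 777, 604, 993 and 1098 at P3 (log2 fold change -1.26, SE 0.20, edgeR adjusted p = 5.17e-05), with no overlap. The receptor gene Igf2r, which clears IGF2, fell (-1.74), as did the RNA-binding protein gene Igf2bp1 (-1.20).

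The remaining lists were mixed. Of basement membrane and matrix genes 5 of 12 tested members were called higher at P3 and 2 lower (median log2 fold change 0.39), with increases of the laminin gene Lama4 (1.34) and of Sparc, a matricellular protein gene (0.94). Mesenchymal marker RNA was higher at P3 in the same clusters (65.6 CPM in the sinusoidal-like cluster of E16.5 and 204 in that of P3), and its part was not tested. Among fatty acid and lipid uptake genes 2 of 8 tested members were called higher at P3 and 2 lower (median log2 fold change -0.01): Gpihbp1, which anchors lipoprotein lipase to capillaries, went from 314, 158, 411, 363 and 276 to 1275, 1002, 1491 and 1389.6 CPM (log2 fold change 2.099, SE 0.22, edgeR adjusted p = 4.00e-07), and Apoe rose (0.96), whereas the fatty acid binding protein genes Fabp5 (-1.60) and Fabp4 (-0.89) fell. Among leukocyte adhesion and chemokine genes 3 of 7 tested members were called higher at P3 and 1 lower (median log2 fold change 0.32), the junction gene Jam2 rising (1.86). Of shear stress and vasoactive genes 3 of 9 tested members were called higher at P3 and 0 lower (median log2 fold change 0.31). Of the BMP and TGF-beta list 2 of 11 tested members were called higher at P3 and 0 lower (median log2 fold change 0.13). Among all genes tested in the endothelial clusters, 14.1% were called higher and 16.3% lower. Over all gated barcodes these 5 lists stood, in the same order, at 2 higher and 4 lower of 13 (median -0.23), 1 higher and 5 lower of 9 (median -0.67), 2 higher and 5 lower of 10 (median -0.75), 2 higher and 3 lower of 10 (median -0.21) and 0 higher and 4 lower of 11 (median -0.46).

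Some genes were named for size alone, in or out of the lists. They were the 10 largest called changes in each direction in the endothelial clusters, among genes without overlap between stages. In the stage where it was higher, each gene had a mean of 30 CPM or more. There its level in the clusters was also at least 3 times that in barcodes outside the gate. These limits did not apply to the other stage. The increases included interferon-induced genes. Iigp1, an interferon-induced GTPase gene, was at 15.5, 9.54, 10.6, 56.9 and 8.08 CPM at E16.5 and 69.6, 263, 148 and 321 at P3 (log2 fold change 3.35, SE 0.46, edgeR adjusted p = 1.35e-05). Ccdc85b was at 31.0, 28.0, 28.3, 25.1 and 30.0 and then at 259.7, 199, 329 and 292 CPM (log2 fold change 3.25, SE 0.19, edgeR adjusted p = 7.11e-11). The serpin genes Serpina3f (3.20) and Serpina3g (3.17) followed, with Sept4 (3.12), Gm4951 (3.02), Fbp1 (2.99), Cdh13, Pgm5 (2.68) and the proteoglycan gene Vcan (2.58). Sept4, Fbp1 and Vcan were not called in all gated barcodes. The decreases under the same limits, which leave out Rrm2 and Ube2c, were led by Gap43, a growth cone protein gene, which went from 105, 141, 92.1, 82.0 and 77.3 to 2.68, 0, 4.12 and 11.7 CPM (log2 fold change -4.49, SE 0.47, edgeR adjusted p = 3.31e-07), then Sox18, Zfp36, Pimreg (-3.74) and Fosb.

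After these came the growth factor signalling inhibitor gene Spry2 (-2.59), Atf3 (-2.55), Phlda1 (-2.38, but 0.38 and not called in all gated barcodes), Myc (-2.36) and Npl (-2.31). Leaving out 1 library moved several of these by over 1.5 times in fold without ending the call: Iigp1 to 4.11 without Jag1Ndr/Ndr replicate 1 at E16.5, Vcan to 3.57 without Jag1Ndr/Ndr replicate 2, Gap43 to -5.19 and Fosb to -4.49 without D, Zfp36 to -4.91 and Spry2 to -4.07 without A, and Pimreg to -3.06 without A and -4.82 without C. Only the Atf3 call among these named genes was lost on leaving out 1 library (-1.87 without A, edgeR adjusted p = 0.0524).

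At E16.5, endothelial expression was compared between the 2 Jag1Ndr/Ndr libraries and the 3 others. No gene was called in all gated barcodes (0 of 11001 tested, 0%; 207 had an unadjusted p under 0.05 in edgeR, and DESeq2 called 0 with 87 under 0.05) or in the endothelial clusters (0 of 7810, 0%; 246 in edgeR, and 0 called with 67 in DESeq2). Leaving out 1 library changed this: 39 genes were called in all gated barcodes without Jag1Ndr/Ndr replicate 2, and in the endothelial clusters 10 without Jag1Ndr/Ndr replicate 1, 10 without replicate 2 and 1 without Jag1+/+ replicate 1, each time leaving 1 homozygous library or 2 of the others. Where 1 homozygous library remained, its spread was taken from the other group, so those calls concern that library and not the genotype. The values that follow are descriptions of genes with the lowest unadjusted p, none of which passed.

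Rspo3 and Wnt2 were lower in both homozygous libraries. In the endothelial clusters Rspo3 was at 63.2, 48.2 and 37.0 normalised CPM in Jag1+/+ replicate 1, the shared library and Jag1Ndr/+ replicate 1 and at 4.54 and 17.5 in the Jag1Ndr/Ndr libraries (log2 fold change -2.03, SE 0.40, edgeR adjusted p = 0.26). Wnt2 was at 46.3, 40.9 and 38.5 and 15.1 and 17.5 (log2 fold change -1.34, SE 0.32, edgeR adjusted p = 0.655). The groups did not overlap for either gene, in the endothelial clusters or in all gated barcodes (-1.14 and -1.06, adjusted p = 1 for both in edgeR). Since these genes were picked for low p, and the share of all genes without overlap was not counted, this separation carries no weight. The Rspo3-led cluster 1 contributed 5, 9 and 1 barcodes in the other libraries and 1 and 2 in the homozygous ones, so fewer such cells and less RNA per cell cannot be told apart. For Rspo3, 148 UMIs were in those 18 barcodes, 20 in the sinusoidal-like cluster, 9 in cluster 10 and 0 in cluster 6. For Wnt2 the numbers were 56, 52, 52 and 0, so most Wnt2 UMIs lay outside the Rspo3-led cluster. With replicate 1 as the only homozygous library, Rspo3 was at -3.41 (edgeR adjusted p = 0.0126), a value that assumes that this library varies like the others.

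The stem cell factor gene Kitl stood at 67.8, 98.0 and 86.3 CPM and 65.0 and 7.19 (log2 fold change -1.40, SE 0.44, edgeR adjusted p = 1). The low value was that of Jag1Ndr/Ndr replicate 2. With that library alone in the homozygous arm the difference was -3.56 (edgeR adjusted p = 1.95e-06, the spread coming from the other group). The inhibin subunit gene Inhbb was at 32.4, 33.5 and 24.7 and 12.1 and 18.5 (log2 fold change -0.96, SE 0.35, edgeR adjusted p = 1). On the other side, Rtkn was at 12.3, 11.5 and 9.25 and 30.2 and 32.9 (log2 fold change 1.49, SE 0.35, edgeR adjusted p = 0.655), and the chemokine gene Cxcl1 at 10.8, 16.8 and 20.0 and 36.3 and 46.2 (log2 fold change 1.37, SE 0.32, edgeR adjusted p = 0.655). The interferon-induced GTPase gene Irgm1 was at 35.5, 33.5 and 26.2 and 101 and 40.1, high in replicate 1 only; with replicate 1 alone in the homozygous arm the difference was 1.65 (edgeR adjusted p = 0.0156, again with the spread of the other group). Cda was at 13.9, 13.1 and 21.6 and 27.2 and 38.0 (log2 fold change 1.10, SE 0.34, edgeR adjusted p = 1). In all gated barcodes the genes with the lowest p by the same rule included Colec10 (0.97), Lum (1.04), Saraf (0.62) and Parp14 (0.92) on the higher side and Dnlz (-0.55), Nostrin (-0.60) and Cfi (-0.54) on the lower side, each of these with adjusted p = 1 in edgeR. Lum and Colec10 are mesenchymal genes and led the mesenchymal-led cluster.

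**Figure D5:**
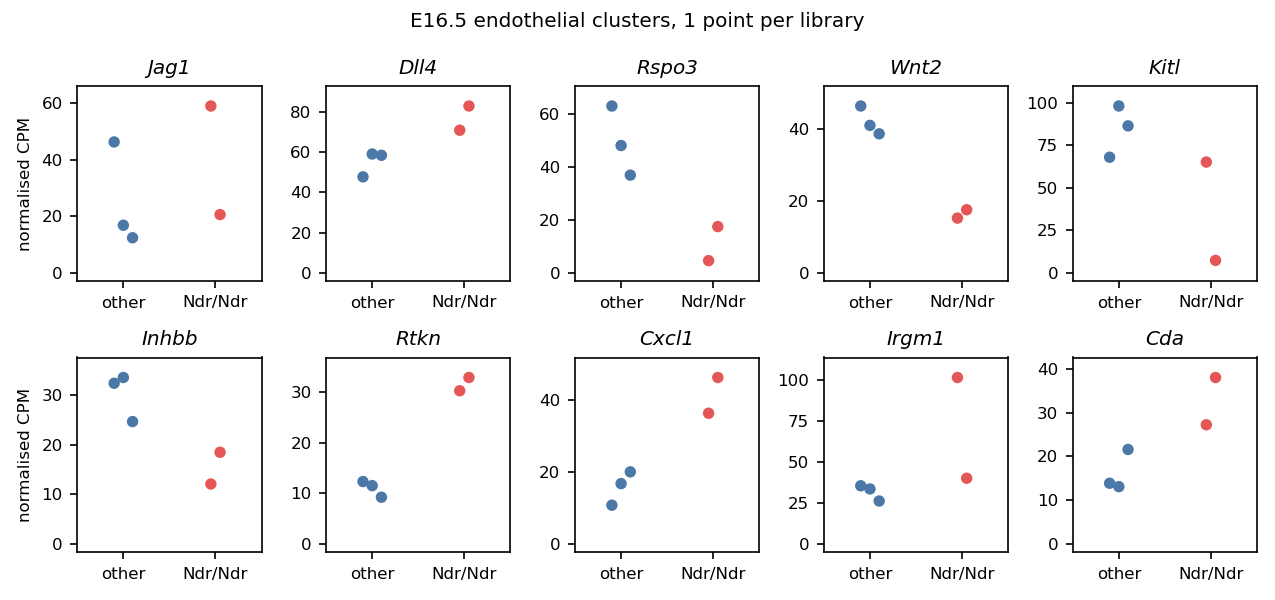
Normalised CPM (vertical axes, 0 included) of 10 genes in the E16.5 endothelial clusters, 1 point per library, for the 3 libraries without a homozygous label (blue) and the 2 Jag1Ndr/Ndr libraries (red). Rspo3 and Wnt2 are lower in both homozygous libraries, Kitl and Irgm1 differ mainly in 1 of them, and no gene passed the test.

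Notch ligands and targets did not pass the test at E16.5 either. Jag1 was at 46.3, 16.8 and 12.3 CPM in the other libraries and 59.0 and 20.5 in the homozygous ones in the endothelial clusters (log2 fold change 0.70, SE 0.46, edgeR adjusted p = 1), where the groups overlapped and the difference was -0.18 without Jag1Ndr/Ndr replicate 1. In all gated barcodes Jag1 was at 17.4, 10.8 and 7.92 and 32.2 and 18.4 (log2 fold change 1.06, SE 0.36, edgeR adjusted p = 1), both homozygous libraries above the others. Dll4 was at 47.8, 59.2 and 58.6 and 71.1 and 83.2 (log2 fold change 0.47, SE 0.22, edgeR adjusted p = 1), Notch1 at 180.4, 201 and 139 and 225 and 229 (log2 fold change 0.38, SE 0.21, edgeR adjusted p = 1), and Hes1 at 69.4, 46.1 and 30.8 and 49.9 and 66.8 (log2 fold change 0.29, SE 0.29, edgeR adjusted p = 1). Both homozygous libraries were above the others for Dll4 and Notch1, but not for Hes1. How many of all genes separated in this way was not counted. The order of these libraries, also for Jag1 in all gated barcodes, is therefore a description only. The calcium channel gene Cacna1a, named after its values were seen, was at 23.1, 15.2 and 30.8 and 3.02 and 1.03 CPM (log2 fold change -3.45, SE 0.68, edgeR adjusted p = 0.26), and at -4.23 with replicate 2 as the only homozygous library (edgeR adjusted p = 0.0352, the spread coming from the other group).

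At P3 only libraries C (Jag1Ndr/Ndr) and D (Jag1Ndr/+) carry a single genotype label, so there was no test and each value has an exact Poisson 95% interval that covers counting error only. Genes were counted when they reached 50 CPM in either library, differed by at least 2-fold and had separate intervals. In all gated barcodes 387 of 3844 were higher in C (10.1%) and 325 lower (8.45%), and in the endothelial clusters 80 of 4349 were higher (1.84%) and 56 lower (1.29%). The genes that led the first count were of megakaryocytes: Myl9 was at 2300.1 CPM in C and 6.72 in D, and the platelet collagen receptor gene Gp6 at 296 and 12.1. Those that led the other direction were of hepatocytes, with the iron hormone gene Hamp at 29.5 CPM in C and 297 in D. The marker sums moved in the same directions by smaller ratios, with megakaryocyte markers at 36918 CPM in C and 11363 in D and hepatocyte markers at 7425 and 21354. The megakaryocyte-led cluster held 10 barcodes of C and 9 of D, and the hepatocyte-led cluster 3 and 8. In the endothelial clusters those marker sums were 136 and 111 CPM, and 3361 and 1112.

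Within the endothelial clusters most of the named differences rested on few UMIs. Nts, the neurotensin gene, had 20 UMIs in C and 1 in D, 90.4 CPM (55.2 to 139.5) against 6.54 (0.166 to 36.4), and the adhesion gene Bcam had 35 and 2, 158 CPM (110 to 219.9) against 13.1 (1.58 to 47.3). Bst2, an interferon-induced gene that tethers viruses, had 164 and 31 UMIs and was at 741 CPM (632 to 863) in C and 203 (138 to 288) in D. In the other direction the interferon-related genes Parp12 (1 and 10 UMIs), Stat2 (3 and 14) and Cxcl10 (4 and 18) were lower in C. So members of that response lay on both sides. Cacna1a had 0 UMIs in C, an upper limit of 16.7 CPM, and 13 in D, 85.0 CPM (45.3 to 145), with 36.7 CPM in A and 7.95 in B. Wnt2 was at 307 CPM (239 to 389) in C and 164 (106 to 241) in D, and Rspo3 at 221 (164 to 293) and 91.6 (50.1 to 154). Both genes were higher in C, 1 library against 1, where both were lower in the homozygous libraries at E16.5. The Rspo3-led P3 cluster held 6 barcodes of C and 3 of D, so cell number and RNA per cell cannot be told apart. For Wnt2 the intervals overlapped and the difference was under 2-fold, so by the rule above it was not counted. Jag1 had 1 and 0 UMIs, too few to compare.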

How the data were processed

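Single-cell UMI counts per gene and barcode were deposited for each sample. Per the submitters' processing notes, Cell Ranger 2.1.1, R 4.1.2, Seurat and mm10 were used; per the file headers, the count matrices were written by software 3.0.2 at P3 and 3.1.0 at E16.5. The P3 files list 22597 genes and the E16.5 files 31053, with 22519 in both. The design text names NextSeq550 and S4 NovaSeq instruments.

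Barcodes were filtered and selected as the report states, clustered within each stage (scanpy 1.11.5, Python 3.11.15) and scored for doublets with Scrublet, whose calls were removed only as an alternative. Counts were summed per library and tested with edgeR 4.0.16 (quasi-likelihood, TMM, filterByExpr, R 4.3.3), with no replicate block; shares were compared by exact permutation. The procedure was tested on simulated data. Gated counts held 743881 to 4296527 UMIs per library. The labels give 2 replicates per genotype and stage, but recurring barcodes left 9 libraries, so p-values measure the spread between these libraries.

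Members and gene lists were chosen with earlier results of these data known. By rule, named genes were called list members (at most 5 a direction and list), and Jag1 always. Between stages the 10 largest called changes a direction with separate groups were added. These needed at least 30 CPM and 3 times the level of barcodes outside the gate in the stage where they were higher. For genotype the 4 lowest p a direction were added, and for the 2 P3 libraries the 6 largest ratios a direction. The text describes some of the genes that this rule gives, chosen with their values known. Alternatives were DESeq2 1.42.0, RLE size factors, other filters and gates, a replicate block, an Xist covariate and leaving out libraries; those on endothelial clusters were chosen after seeing the data.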

Additional observations from a re-analysis of the deposited data

Results flagged for a closer look

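In the E16.5 group 4 values stood apart from the other 4 libraries by Dixon's criterion, which chance meets in about 1 in 20 groups. The number of values screened is not given here, so these 4 cannot be set against the number that chance would give. The shared library had 1.49% of passing barcodes gated and 0.824% in the endothelial clusters. Jag1Ndr/Ndr replicate 1 had 56.9 normalised CPM of Iigp1 and 659 of Fosb in the endothelial clusters, each the highest of the 5 libraries.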

How the results depend on the processing

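Counts of called genes at E16.5 by genotype were 39 in all gated barcodes with no low-count filter, 0 to 39 on leaving out 1 library, and 0 to 10 in the endothelial clusters on leaving out 1 library; with a replicate block they were 0 in both. Between stages the 3292 calls in all gated barcodes became 2187 with 4 of the 6 genes required, 1510 with 0 C1q UMIs and 1942 without libraries A and B, and 3014 with a replicate block; the 2214 calls in the endothelial clusters became 2032 with it. The 712 differences between P3 libraries C and D became 136 in the endothelial clusters and 245 with 0 C1q UMIs. The homozygous share difference ranged from -0.47 to 0.23 on leaving out 1 library, was -0.47 with the replicate block and -0.80 among barcodes with under 5% globin UMIs; the stage difference was -0.86 with 0 C1q UMIs, -1.99 among those with under 5% globin UMIs and -0.51 with the replicate block. For each of these changes the cause was not tested. Replicate numbers gave no sign of pairing the libraries (correlation of same-number deviations 0.0371 over 11001 genes). Counting error also lowers this correlation, so it cannot exclude pairing. In the stage comparison the sign differed for Notch1 with 0 C1q UMIs (0.00931) and, in the endothelial clusters, for Notch1 with a replicate block (0.0364) and on leaving out 1 library (0.000168 to 0.0481), and in all gated barcodes for Phlda1 (0.38), Stab1 (-0.10), Gpr182 (-0.0789) and Notch4 (-0.0762); Jag1 by genotype was -0.18 without Jag1Ndr/Ndr replicate 1 and 1.33 without replicate 2. Of the settings tried on single genes between stages, 1725 kept direction and side of the threshold and 73 lost the call. The 33 to 53 barcodes per P3 library other than A in the endothelial clusters limit what low genes can show.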
